A study of Rattus norvegicus with 4 samples.

Results

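The Wnt and Notch pathway genes described here are 45 named genes, 30 of the Wnt and 15 of the Notch pathway. They comprise ligands, receptors, secreted antagonists, intracellular components, transcription factors and target genes. Members were found on the array by gene name or older symbol among non-control probes. Probes were found for 43 of the 45, with 55 probes at 73 spots, among 35658 genes and unnamed transcripts on the array. Fzd8, a Wnt receptor gene, had no probe under its name. Rbpj, the DNA-binding partner of the Notch intracellular domain, had none that could be assigned to it. A probe carrying Rbpj's gene ID as its name lay on chromosome 5 of the rat build rn4, while the RefSeq table of assembly GRCr8 places Rbpj on chromosome 14. That probe was left out of the members and read 0.77 and 0.39 with testosterone, against 0.59 and 0.32 in control.

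Testosterone-treated and control peritubular myoid cells of the rat testis were compared on 2 one-colour arrays each. Both groups came from testes of male rats aged 40 days and were cultured for 4 days in medium with defined growth factors. Treated cells received 1e-07 M testosterone in pulses. The labels carry the same treatment text for the control samples, so what these cells received was not given in the sources used here, nor were a strain, the number of animals or the purity of the isolation. Nothing says that the replicates came from separate cultures or animals, so a p-value here covers array-to-array spread alone, and that spread may be technical.

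In the canonical Wnt pathway, a Wnt ligand binds a Frizzled receptor and an Lrp co-receptor, beta-catenin escapes the Axin, Apc and Gsk3 destruction complex, and TCF/LEF factors switch on targets such as Axin2. In the Notch pathway, a Jagged or Delta-like ligand binds a Notch receptor on the neighbouring cell, and the receptor's intracellular domain is cut free and joins Rbpj to switch on Hes and Hey genes. In the testis, Wnt4 and Notch signals are known from gonadal development. Notch3 is typical of contractile mural cells such as vascular smooth muscle, and peritubular myoid cells are the contractile cells around the seminiferous tubule.

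Axin2, Hes1 and Hey2 are the listed target genes that were tested against control, so their promoters are shown. Hey1, also a listed target, was not tested. Only mRNA was measured, and the output of the pathways was not. The sequences run from 250 bases before to 50 bases after the gene's start, in RefSeq's table for GRCr8. Capitals in Axin2 mark the TCF/LEF core CTTTGA, and capitals in Hes1 and Hey2 mark the RBPJ core TGGGAA, both searched on either strand.
Axin2 (chr10:94398535-94398834, plus strand): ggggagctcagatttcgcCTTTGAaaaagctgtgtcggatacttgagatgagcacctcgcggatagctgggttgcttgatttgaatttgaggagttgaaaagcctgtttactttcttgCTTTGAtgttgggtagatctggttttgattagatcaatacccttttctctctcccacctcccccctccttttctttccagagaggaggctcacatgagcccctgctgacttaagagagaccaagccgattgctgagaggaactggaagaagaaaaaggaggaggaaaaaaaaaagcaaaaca
Hes1 (chr11:84212996-84213295, minus strand): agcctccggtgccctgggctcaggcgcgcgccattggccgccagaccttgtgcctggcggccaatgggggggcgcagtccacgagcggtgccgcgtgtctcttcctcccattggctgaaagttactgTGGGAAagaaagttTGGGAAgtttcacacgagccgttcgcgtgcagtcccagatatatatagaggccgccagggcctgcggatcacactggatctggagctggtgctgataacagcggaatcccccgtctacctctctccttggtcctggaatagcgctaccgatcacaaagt
Hey2 (chr1:28640850-28641149, plus strand): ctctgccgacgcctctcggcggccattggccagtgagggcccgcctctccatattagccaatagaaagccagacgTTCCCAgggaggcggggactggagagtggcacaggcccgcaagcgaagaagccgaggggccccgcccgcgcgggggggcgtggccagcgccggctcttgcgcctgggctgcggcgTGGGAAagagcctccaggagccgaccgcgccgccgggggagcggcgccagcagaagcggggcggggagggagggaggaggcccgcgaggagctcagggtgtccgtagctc

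Each of these promoters held 2 matches. Of 33469 rat promoters of the same length, 16.1% held CTTTGA or TCAAAG and 25.7% held TGGGAA or TTCCCA. Among 34 member promoters in the table, 3 held the TCF/LEF core and 11 the RBPJ core. The androgen receptor half-site AGAACA, or TGTTCT on the other strand, stood in 0 of the 34 and in 20.7% of all promoters. The 3 promoters shown held no other of these motifs, so no matches overlapped, and a match describes letters, not binding.

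Each level is the log2 of the processed signal, scaled so that 0 is the 75th percentile of the non-control spots on that array. Different probes bind with different strength, and no member's level was set against another's. A spot was counted as detected where the scanner software called it well above background, which held for 63.5% to 68.2% of non-control spots. Of the 43 members with a probe, 30 were well above background on all 4 arrays, and Lfng on 3. A further 9 had no probe well above background on any array, and 3 reached that mark on 1 or 2 arrays. The test took the 31 members that were detected throughout testosterone, throughout control, or in both. No spot of a tested member was saturated.

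**Figure D1:**
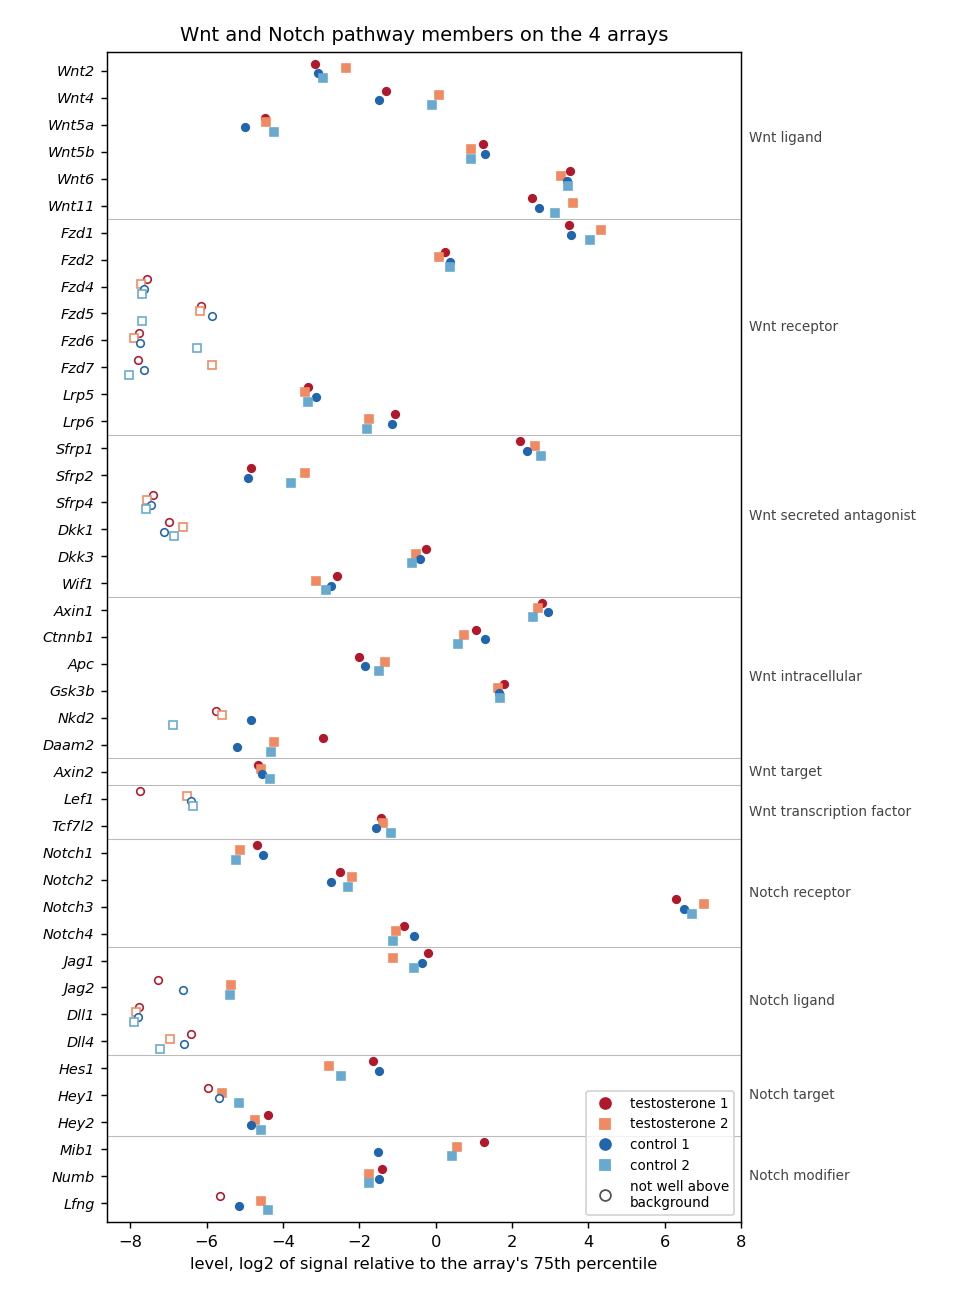
Level of each of the 43 measured members on the 4 arrays, in log2 units relative to the array's 75th percentile, ordered by role. Filled points were well above background on that array and open points were not, and 30 members are filled on all 4 arrays.

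No member passed the test of testosterone against control. Of the 31 tested, 0 were higher and 0 lower at an adjusted p under 0.05 in limma, and over all 22041 genes tested 0% were called in either direction, with a smallest adjusted p of 1.00. At an unadjusted p under 0.05 in limma there were 0 members, against 174 of all genes (0.789%). With normexp background correction and the 75th percentile there was 1 member, Daam2, and 17 genes. Differences, testosterone minus control, were positive for 16 members and negative for 15. Their median was 0.0060 log2 units, against -0.0081 over all genes. In 2 members, Daam2 and Mib1 (6.45%), the treated arrays were higher than each control array, against 6.04% of all genes. In 3 members, Fzd2, Lrp5 and Axin2 (9.68%), they were lower than each control array, against 9.1% of all genes. Each of these shares is near its background. All 31 intervals of the difference included 0, and with 2 against 2 arrays the median half-width was 0.82 for members and 0.64 for all genes.

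**Figure D2:**
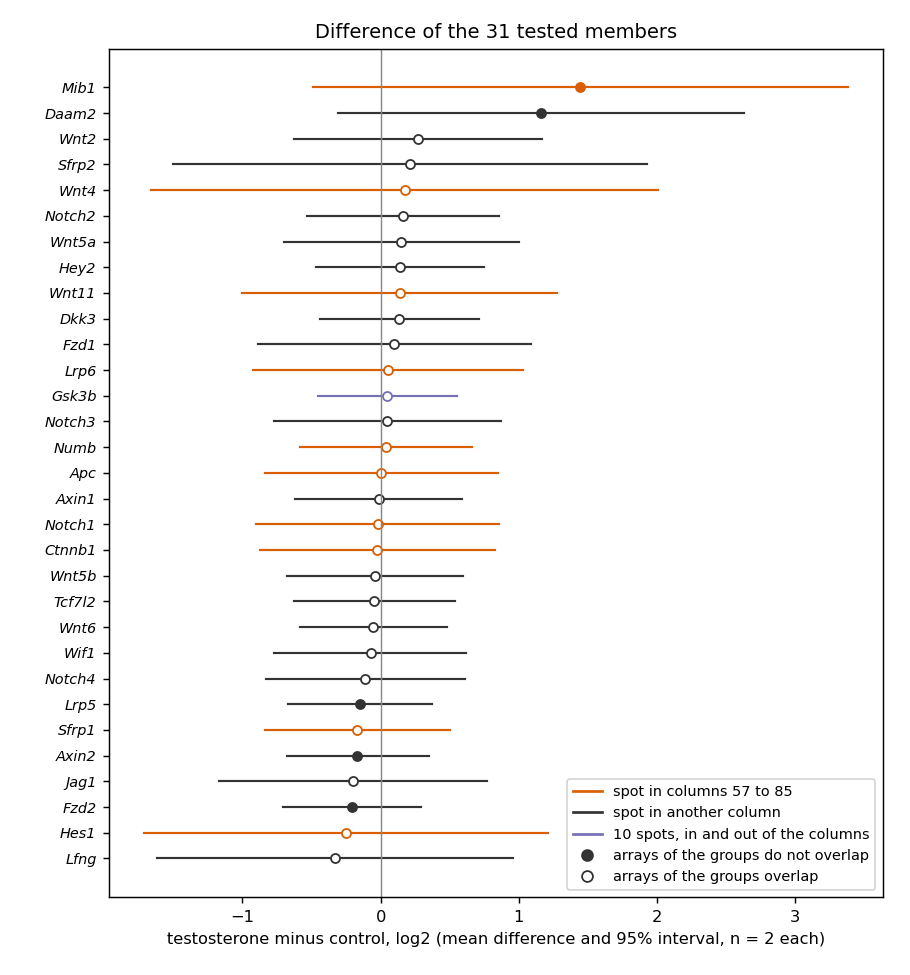
Testosterone minus control in log2 units for the 31 tested members, with 95% intervals from limma over 2 arrays each. Orange marks members whose spot lies in array columns 57 to 85, and filled points mark the 5 members whose groups do not overlap, with Mib1 at 1.44 and Daam2 at 1.16 uppermost.

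Wnt ligands were detected for all 6 listed genes. Wnt2, a secreted ligand, stood at -3.16 and -2.34 in testosterone-treated cells, against -3.08 and -2.96 in control cells. Testosterone replicate 2 was highest and the groups overlapped, with a difference of 0.27 (95% interval -0.63 to 1.17). Its other probe was above background on testosterone replicate 1 alone and was not tested. Wnt4, which acts in gonad and kidney development, stood at -1.29 and 0.093, against -1.47 and -0.087 in control. The arrays numbered 2 were higher by 1.39 with testosterone and 1.38 in control, while the groups differed by 0.18 (-1.66 to 2.01). Wnt5a, a ligand of beta-catenin-independent signalling, read -4.48 and -4.44 with testosterone, against -5.00 and -4.23 in control, a difference of 0.15 (-0.70 to 1.00) with both treated arrays between the controls.

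Wnt5b, a close relative of Wnt5a, had 2 tested probes. The brighter (chr4:155747817-155747876, rn4) read 1.23 and 0.92 with testosterone, against 1.29 and 0.94 in control, a difference of -0.038 (-0.68 to 0.60). The dimmer (chr4:155754667-155754726) read -3.10 and -3.51, against -2.46 and -3.05, and differed by -0.55. The treated arrays were lowest on the dimmer probe and overlapped the controls on the brighter one, and the probes disagreed by 0.52. The dimmer probe's spot lies in column 85 and the brighter one's in column 38. On the dimmer probe control replicate 1, at -2.46, was the highest array, not a low one. Wnt5b was the only member of 7 with over 1 tested probe whose probes lay over 0.5 apart. Wnt6 and Wnt11 were detected on all arrays and differed by -0.053 and 0.14.

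Of 8 measured Wnt receptors and co-receptors, 4 were detected on all arrays and 4, the Frizzled receptors Fzd4, Fzd5, Fzd6 and Fzd7, on none. Fzd1 stood at 3.49 and 4.32 in testosterone-treated cells, against 3.56 and 4.05 in control cells. Its groups overlapped, with replicate 2 higher in each, and differed by 0.10 (-0.89 to 1.09). Fzd2 (chr10:91710239-91710298) read 0.25 and 0.086 with testosterone, against 0.37 and 0.39 in control. Both treated arrays were lower, and the difference was -0.21 (-0.71 to 0.29; adjusted p = 1.00 in limma). Lrp5, one of the co-receptors (chr1:206103085-206103144), stood at -3.34 and -3.42, against -3.13 and -3.34 in control. Testosterone replicate 1 and control replicate 2 were equal to the digits given, and the groups differed by -0.15 (-0.67 to 0.37). Lrp6, the other co-receptor, differed by 0.054 with its brighter probe and -0.16 with its dimmer one.

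Secreted Wnt antagonists were detected for 4 of 6 genes, Sfrp1, Sfrp2, Dkk3 and Wif1, while Sfrp4 with its 3 probes and Dkk1 were not above background anywhere. Sfrp1, which binds Wnt ligands outside the cell, stood at 2.21 and 2.60 with testosterone, against 2.40 and 2.75 in control, a difference of -0.17 (-0.84 to 0.50). Sfrp2, of the same family, read -4.84 and -3.42, against -4.91 and -3.78, with the arrays numbered 2 higher in both groups and a difference of 0.21 (-1.50 to 1.93). Its second tested probe differed by -0.056. Dkk3, a divergent member of the Dickkopf family, stood at -0.25 and -0.51, against -0.40 and -0.63 in control. Treated and control arrays alternated in order, and the difference was 0.13 (-0.44 to 0.71). Wif1, which also binds Wnt ligands, differed by -0.073.

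Inside the cell, 5 of 6 Wnt pathway components were detected on all arrays. Axin1, a scaffold of the beta-catenin destruction complex, stood at 2.79 and 2.67 with testosterone, against 2.94 and 2.54 in control, a difference of -0.013 (-0.62 to 0.59). Ctnnb1, which encodes beta-catenin, read 1.06 and 0.75 on its brighter probe, against 1.29 and 0.58, a difference of -0.024 (-0.87 to 0.83). Apc, another part of that complex, stood at -2.00 and -1.32, against -1.85 and -1.49, and differed by 0.0060 (-0.84 to 0.85). For these 3 genes the arrays of the groups overlapped. Nkd2, which binds Dishevelled, was detected on control replicate 1 alone.

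Daam2, a formin that links Dishevelled to the actin cytoskeleton, had the second largest difference among the tested members (chr9:6755869-6755928, rn4). It stood at -2.96 and -4.23 in testosterone-treated cells, against -5.20 and -4.32 in control cells. Testosterone replicate 1 was the highest, and testosterone replicate 2 lay close to control replicate 2. Control replicate 1, the lowest, lay near that array's detection limit of -5.56. Means were -3.59 ± 0.89 with testosterone and -4.76 ± 0.62 in control (SD, n = 2 each), and the difference was 1.16 (-0.31 to 2.63; adjusted p = 1.00 in limma). Without testosterone replicate 1 the difference was 0.53, without control replicate 1 it was 0.72, and with normexp background correction it was 0.48.

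Axin2, a feedback target of beta-catenin whose promoter is shown above (probe at chr10:98321105-98321164, rn4), stood at -4.64 and -4.58 in testosterone-treated cells, against -4.55 and -4.34 in control cells. Both treated arrays were lower, and the difference was -0.17 (-0.68 to 0.35; adjusted p = 1.00 in limma). Of the transcription factors, Lef1 was detected on no array. Tcf7l2, found through its gene ID, read -1.44 and -1.38 with testosterone, against -1.55 and -1.18 in control, a difference of -0.046 (-0.63 to 0.54). Its dimmer probe differed by 0.34.

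All 4 Notch receptors were detected on every array. Notch1 stood at -4.69 and -5.11 in testosterone-treated cells, against -4.53 and -5.24 in control cells, a difference of -0.018 (-0.90 to 0.86). Notch2 stood at -2.51 and -2.20, against -2.74 and -2.29, and differed by 0.16 (-0.53 to 0.86). Notch3, the receptor of contractile mural cells, stood at 6.31 and 7.02, against 6.52 and 6.72 in control. Its treated arrays enclosed the controls, with a difference of 0.046 (-0.77 to 0.87). Notch4 differed by -0.11.

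Among the Notch ligands Jag1 was detected on all arrays, Jag2 on the 2 arrays numbered 2, and Dll1 and Dll4 on none. Jag1 stood at -0.21 and -1.12 with testosterone, against -0.36 and -0.56 in control. The treated arrays enclosed the controls, and the difference was -0.20 (-1.17 to 0.77).

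Of the Notch targets, Hes1, a transcriptional repressor, stood at -1.65 and -2.80 in testosterone-treated cells, against -1.48 and -2.48 in control cells. The array numbered 2 was lower than that numbered 1 in both groups, and the groups differed by -0.25 (-1.71 to 1.21). Hey2, a related repressor, read -4.40 and -4.72, against -4.83 and -4.57, a difference of 0.14 (-0.47 to 0.75) with overlapping groups. Its other probe was above background on no array and was not tested, so detection of Hey2 rests on the brighter probe. Hey1 was detected on the 2 arrays numbered 2. Neither Hes1 nor Hey2 passed the test, and neither did Axin2 on the Wnt side (adjusted p = 1.00 in limma for each).

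Mib1, the ubiquitin ligase that activates Notch ligands in the sending cell, had the largest difference among the tested members (chr18:2224656-2224715, rn4). It stood at 1.26 and 0.55 in testosterone-treated cells, against -1.51 and 0.43 in control cells. Control replicate 1 was alone in reading low, 1.94 below control replicate 2. Means were 0.91 ± 0.50 with testosterone and -0.54 ± 1.37 in control (SD, n = 2 each), and the difference was 1.44 (-0.49 to 3.38; adjusted p = 1.00 in limma). Without control replicate 1 it was 0.47 and without control replicate 2 it was 2.41. Numb, an inhibitor of Notch receptors, stood at -1.40 and -1.74, against -1.47 and -1.74 in control, a difference of 0.041 (-0.58 to 0.66). Lfng, a glycosyltransferase that modifies Notch receptors, was tested because both control arrays detected it, while testosterone replicate 1 did not. It read -5.65 and -4.56 with testosterone, against -5.15 and -4.40 in control, with the first of these under that array's detection limit of -5.51. Its difference of -0.33 therefore rests on an undetected spot and was -0.26 with values floored at the limit.

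The Mib1 spot lies at row 482 and column 82 of the array, among columns 57 to 85, where control replicate 1 held spots that read far below the other arrays. A spot was counted as low when it read at least 1 log2 unit below the lowest of the other 3 arrays and those 3 were well above background. On control replicate 1, 395 of 8992 spots in these columns were low (4.39%), against 30 of 17746 in the other columns (0.169%). The other arrays had between 0.0578% and 0.672% low spots in the same columns. Of 23 member spots eligible there on control replicate 1, 2 were low, the Mib1 spot and 1 spot of Ctnnb1. Around Mib1, within 25 rows and 5 columns, 105 of 264 neighbouring spots were low on control replicate 1 (39.8%). Around Daam2, at row 223 and column 37, 3 of 319 were (0.94%).

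**Figure D3:**
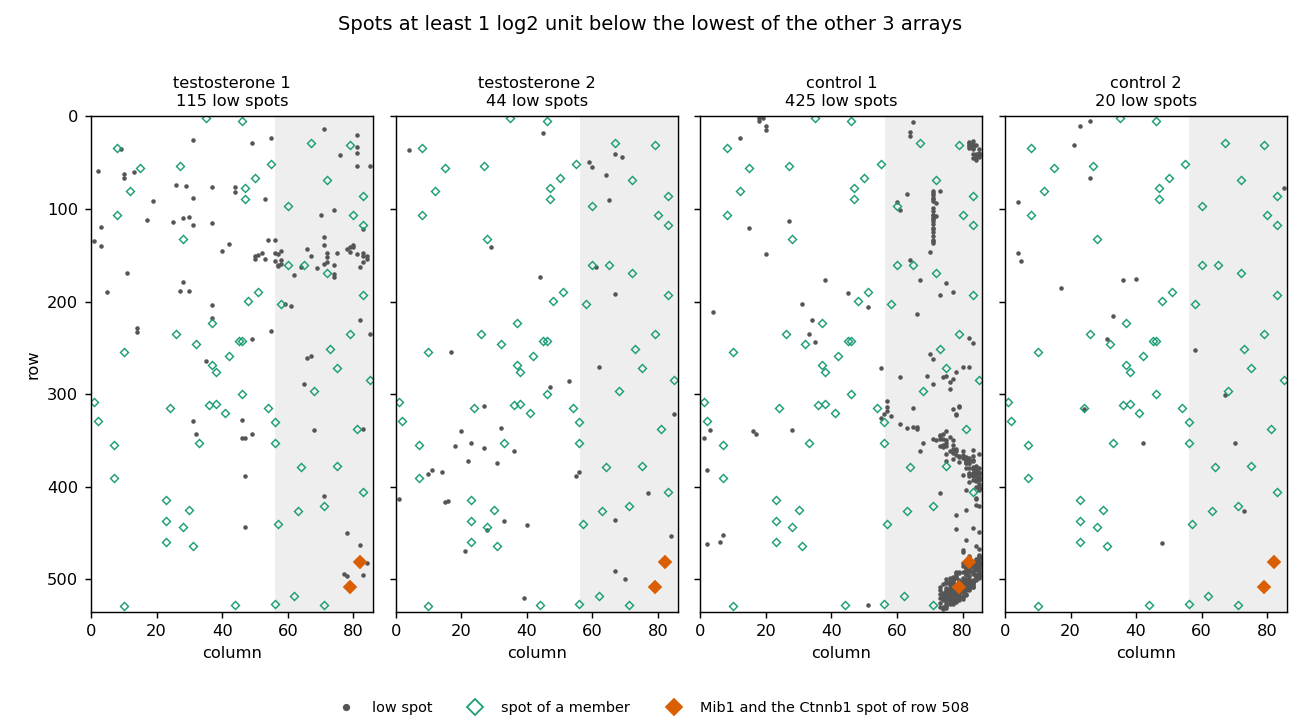
Position by row and column of the low spots on each array, with columns 57 to 85 in grey and the spots of members as diamonds. The testosterone arrays held 115 and 44 low spots and control replicate 2 held 20, while control replicate 1 held 425, many of them around Mib1 and the Ctnnb1 spot of row 508 (orange).

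Ctnnb1 and Gsk3b, a kinase of the beta-catenin destruction complex, were each printed 10 times with 1 probe, with spots in and outside those columns. The Ctnnb1 probe averaged -1.69 and -1.30 with testosterone, against -1.48 and -1.35 in control, a difference of -0.077. On control replicate 1 its spot at row 508 and column 79 read -6.98 and was flagged as an outlier, while the other 9 read between -1.67 and -1.41. In the neighbourhood of that spot 171 of 248 spots were low (69%). The flagged spot was left out, and with it control replicate 1 would average -2.03. Gsk3b averaged 1.80 and 1.64 with testosterone, against 1.66 and 1.68 in control. Its 10 spots on control replicate 1 read between 1.56 and 1.72 in any column, and the groups differed by 0.047 (-0.45 to 0.55).

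**Figure D4:**
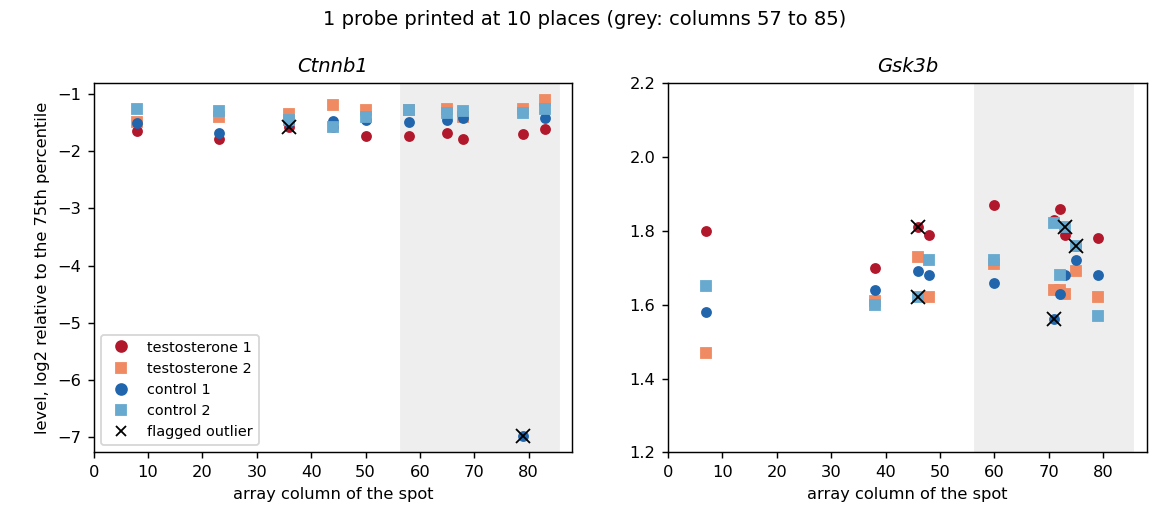
Level of each of the 10 spots of 1 Ctnnb1 and 1 Gsk3b probe against its array column, in log2 units relative to the 75th percentile, with columns 57 to 85 in grey. A single Ctnnb1 spot on control replicate 1 reads -6.98, while the Gsk3b spots of that array stay between 1.56 and 1.72.

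The columns held the standing spots of 10 tested members. Besides Mib1 and Ctnnb1 these were Wnt4, Wnt11, Lrp6, Sfrp1, Apc, Notch1, Hes1 and Numb. The neighbourhoods of these 8 held 0% to 6.44% low spots, the highest around Apc. The standing Ctnnb1 spot, of the brighter probe, lies at row 426 and column 63 and was not low. Its neighbourhood was not counted, and the low spot at row 508 belongs to the dimmer probe. Among the 10 members, 6 differences were positive and 4 negative, with a median of 0.023. For the 20 in other columns 9 were positive and 11 negative, with a median of -0.025. With the columns left out, 25 members could be tested. Of these, 1 lay above both controls and 3 below, beside 803 and 1446 of 15455 genes. Daam1, a non-member relative of Daam2 chosen after its values were seen, lay at row 489 and column 85. It read 0.81 and 0.77 with testosterone, against -2.55 and 0.94 in control, with 61.5% of its neighbours low on control replicate 1.

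Several members differed by array number in both groups. For 25 of the 31 members (80.6%) the array numbered 2 differed from that numbered 1 in the same direction in testosterone-treated and in control cells, against 71.2% of all genes. By at least 0.5 in both groups, Wnt4, Sfrp2 and Lfng were higher on the arrays numbered 2 (9.68%, against 9.61% of all genes), the size for Lfng resting on its undetected spot on testosterone replicate 1. Lrp6, by its brighter probe, and Hes1 were lower by as much (6.45%, against 3.99%). The dimmer Lrp6 probe read -4.27 and -4.30 in control and did not share this shift. Mib1 and Daam2 were higher on control replicate 2 by 1.94 and 0.88 and lower on testosterone replicate 2, at -0.71 and -1.26 relative to replicate 1. The labels do not say what the numbers stand for. With the array number as a block, 0 members were called in limma.

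**Figure D5:**
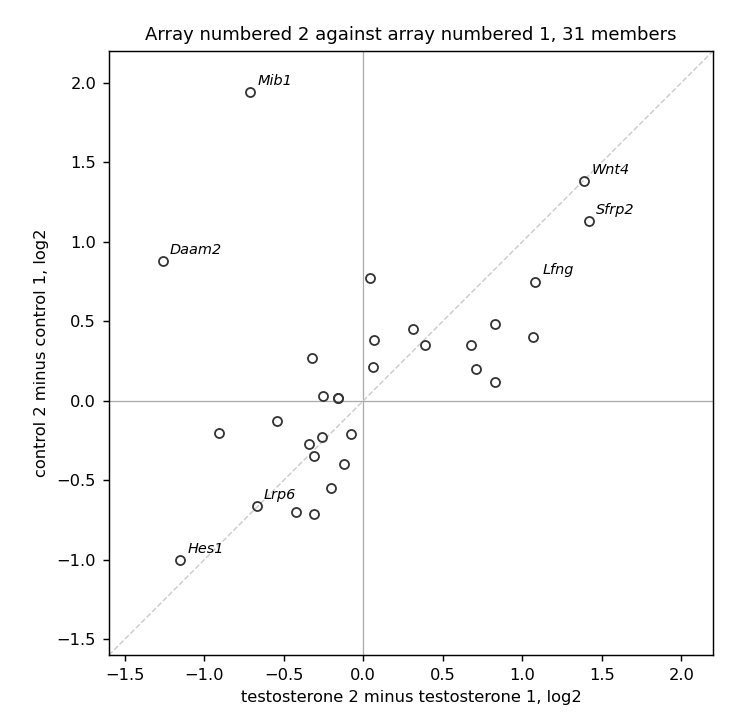
Array numbered 2 minus array numbered 1 in log2 units, in testosterone-treated cells (horizontal) and in control cells (vertical), for the 31 tested members. Wnt4, Sfrp2, Lfng (not detected on testosterone replicate 1), Lrp6 (brighter probe) and Hes1 lie at least 0.5 from 0 on the same side in both groups, while Mib1 and Daam2 have opposite signs.

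Other genes of the 2 pathways were counted from a wider list. Of 72 other Wnt pathway genes 46 were tested, with 25 positive and 21 negative differences, a median of 0.025 and 0 called. Wnt7a, a ligand, read -3.28 and -3.05 with testosterone, against -3.49 and -3.67 in control, a difference of 0.42 (-0.13 to 0.96). Celsr3, a planar polarity cadherin, and Csnk1e, a casein kinase, also lay above both controls, at 0.38 and 0.24. Lgr4, a receptor of R-spondins, lay below them at -0.20. Of 36 other Notch pathway genes 28 were tested, with 7 positive and 21 negative differences, a median of -0.062 and 0 called. Hes3, a Hes-family repressor, lay above both controls at 0.43 and Aph1a, a gamma-secretase subunit, below them at -0.25. Both lists together had 5 of 74 genes above (6.76%) and 5 below (6.76%), against 6.04% and 9.1% of all genes.

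The cells carried markers of more than one cell type. Acta2 and Myh11, the defining smooth muscle genes, had no probe under their names. Of 9 peritubular and smooth muscle markers with a probe, 8 were tested (not Cnn1) and 7 were detected on all arrays (not Lmod1, on 3). Their differences were positive for 3 and negative for 5, with a median of -0.063 and 0 called. Des, a muscle intermediate filament, read 1.68 and 2.46 with testosterone, against 1.72 and 2.15 in control. Myl9, a myosin light chain, read 5.68 and 5.86, against 5.98 and 6.11. Tagln was dim, at -4.63 and -2.84 with testosterone, against -4.47 and -2.75 in control. The 8 genes' linear signals summed to 60.4 and 68.8 with testosterone, against 70.9 and 79 in control, a sum in which Myl9, the brightest, weighs most. Median levels of the 8 were 0.62 and 0.0041 with testosterone, against 0.12 and 0.078 in control. By the median the treated arrays enclosed the controls, so the lower sums do not hold for the markers as a set. The part of this in the members' values was not tested. Detected on all arrays were 7 of 10 Sertoli markers with a probe (not Sox9, Fshr and Wt1), 5 of 7 Leydig markers (not Lhcgr and Hsd17b3) and 7 of 7 macrophage markers, with a summed linear signal of 94 to 121 for Leydig markers with testosterone, against 101 to 105 in control, and of 105 to 135 for macrophage markers, against 108 to 155. Sertoli markers summed to 24.9 to 25.8, against 25.8 to 27.8. Of 8 endothelial markers 4 were tested, all with negative differences, but for each the arrays of the groups overlapped and the interval included 0. These markers summed to 0.671 and 1.14 with testosterone, against 0.808 and 1.69 in control, higher on the arrays numbered 2. Germ cell markers, 6 of 9 tested, summed to 0.512 and 5.92 with testosterone and 0.472 and 6.02 in control, high on the arrays numbered 2. Tnp1, a spermatid protein, read -3.42 and 1.59, against -2.80 and 1.59. In these bulk samples fewer cells of a type and less RNA per cell cannot be told apart, and which cells carried the pathway genes was not tested.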

How the data were processed

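Per the labels' protocols, Cy3-labelled cRNA made from oligo-dT-primed cDNA was hybridised to an Agilent 4x44k rat design. Per the file headers, Feature Extraction 11.5.1.1 wrote the scanner files on build rn4, whereas version 10.5 stands in the submitters' processing notes. Deposited scanner files hold processed signal, mean signal and background as intensity on a linear scale, with spot flags. The authors' deposited table holds log2 values. Over 40709 probes printed once, the processed signal in log2 lay above them by a median of 8.79 and 8.38 for testosterone, and 8.63 and 8.55 for control. Column medians were -3.61 and -3.34 for testosterone, and -3.62 and -3.45 for control. How far that offset varied between probes is not given here.

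Levels were computed here as log2 processed signal less the array's own 75th percentile over non-control spots. Control and outlier-flagged spots were left out and spots of a probe averaged. Each array held 45018 spots, 43379 of them not controls. The brightest tested probe stood for a gene, and names came from files and RefSeq's GRCr8 table. Limma 3.58.1 (R 4.3.3; lmFit, eBayes, 2-sided, Benjamini-Hochberg over 22041 genes, no covariate) was tested on simulated data. An exact permutation test of 2 against 2 arrays cannot go below 0.333. The number of arrays limits the precision.

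Members, gene lists and rules were chosen with earlier results of these data known. Array values are given for members that were called, had groups apart by at least 0.3, differed by at least 0.58, read at least 1 low on 1 array, had probes over 0.5 apart, or were the first 3 detected of their role. Of the wider lists, up to 4 genes with the largest difference and groups apart are named. Gsk3b and members named with a difference alone stand outside the rule. Alternatives covered background correction, normalization, filter, floor, probe choice, the columns, the authors' table, the replicate block and leaving out each array.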

Additional observations from a re-analysis of the deposited data

How the results depend on the processing

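Limma called 0 genes and 0 members in either direction under every alternative with all 4 arrays; without control replicate 2, 35 genes were called higher and 0 members (0 to 35 when 1 array was left out, a lone array being taken to vary like the other pair). With a replicate block (array number as a term) 0 genes were called higher and 0 lower, and 619 had an unadjusted p under 0.05, against 174 without it. That count was 17 with normexp and the 75th percentile, 38 with normexp and quantile, and 629 with no detection filter. It was 75 with detection on all 4 arrays and 99 without columns 57 to 85. Among members, with all 4 arrays kept, it was 1, Daam2, with normexp and the 75th percentile. Without control replicate 2 the largest member differences were 2.41 for Mib1, whose spot on control replicate 1 was low, and 1.60 for Daam2. Arrays of the same number deviated together from their group means (correlation 0.471 over genes), but no label ties a number to a culture or animal, and no pairing was assumed. The slide as a block was not run, since all 4 arrays were on 1 slide.

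Members above both controls were 1 of 31 with quantile normalization of processed signals, against 2 of 31. Beside these stood 1325 of 22041 genes, against 1331. Without columns 57 to 85 they were 1 of 25, beside 803 of 15455 genes. They were 8 to 10 of 31 when 1 array was left out, beside 4220 to 9099 of 22017 to 22040 genes. Members below both controls were 1 of 31 with normexp and the 75th percentile, against 3 of 31. Beside these stood 1822 of 22041 genes, against 2005. With no detection filter they were 5 of 43, beside 2802 of 35657 genes. They were 7 to 10 of 31 when 1 array was left out, where 3 arrays part more easily, beside 5240 to 8985 of 22017 to 22040 genes. The median difference moved by less than the spread between arrays under every alternative.

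Of the 31 members, 25 changed sign when 1 array was left out. The 6 that kept it, also under the other alternatives, were Fzd2, Lrp5, Axin2, Daam2, Mib1 and Dkk3; for the first 5 the groups do not overlap, which fixes the sign. With all 4 arrays, 5 members near 0 changed sign. Lrp6 was -0.053 with the mean over probes and -0.16 without columns 57 to 85. Axin1 was 0.067 with normexp and the 75th percentile and 0.062 with normexp and quantile. Apc was -0.0090 with normexp and quantile, -0.026 with quantile alone, -0.0013 with the authors' deposited table, -0.038 with the mean over probes and -0.081 without the columns. Tcf7l2 was 0.0082 with normexp and the 75th percentile and 0.15 with the mean over probes. Numb was -0.0031 with normexp and the 75th percentile, -0.028 with normexp and quantile, -0.038 with the mean over probes and -0.12 without the columns. Where the columns were left out, another probe stood for these genes. Otherwise the cause was not tested.

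With 1 array left out, differences ran as follows. Among Wnt ligands, Wnt2 ran from -0.14 to 0.69, Wnt4 from -0.52 to 0.87, Wnt5a from -0.24 to 0.54, Wnt5b from -0.21 to 0.14, Wnt6 from -0.18 to 0.071 and Wnt11 from -0.39 to 0.67. Fzd1 ran from -0.32 to 0.51, Lrp6 from -0.28 to 0.39, Sfrp1 from -0.37 to 0.022, Sfrp2 from -0.50 to 0.92 and Wif1 from -0.34 to 0.20. Axin1 ran from -0.21 to 0.19, Ctnnb1 from -0.38 to 0.33, Apc from -0.33 to 0.35, Gsk3b from -0.034 to 0.13 and Tcf7l2 from -0.23 to 0.14. Notch1 ran from -0.37 to 0.33, Notch2 from -0.063 to 0.39, Notch3 from -0.31 to 0.40, Notch4 from -0.39 to 0.17 and Jag1 from -0.66 to 0.25. Hes1 ran from -0.82 to 0.33, Hey2 from -0.019 to 0.30, Numb from -0.13 to 0.21 and Lfng from -0.87 to 0.21. The members that kept their sign still moved: Fzd2 ran from -0.29 to -0.13, Lrp5 from -0.25 to -0.042 (without control replicate 1), Axin2 from -0.27 to -0.066 (without control replicate 2), Dkk3 from 0.0055 (without testosterone replicate 1) to 0.26, Daam2 from 0.53 to 1.79 and Mib1 from 0.47 to 2.41.

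Signals near background limit the 9 members not detected anywhere, whose levels are bounds only, and also Nkd2, Jag2 and Hey1. Dim tested members, near the detection limits of -5.51 to -5.68, depended on background handling. With normexp and the 75th percentile Sfrp2 moved from 0.21 to 0.0030, Axin2 from -0.17 to -0.039 and Wnt5a from 0.15 to 0.045. Daam2, near the limit on control replicate 1, moved from 1.16 to 0.48. Notch1 moved the other way, from -0.018 to -0.052.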
